A study of Homo sapiens with 6 samples.

Results

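The type I interferon and double-stranded RNA response is described here in ES-2 cells given a mimic of the microRNA mir-22. It was taken as a list of 35 genes, and every probe whose symbol in the platform annotation equalled a listed gene was used. Of the 35, 33 had at least 1 named probe, out of 18852 genes named on the array, and together they had 50 of the 48803 probes. STAT2, the interferon-signalling transcription factor, and USP18, the protease that removes ISG15, had no probe named here.

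ES-2 is an established human cell line derived from an ovarian clear cell carcinoma. The mir-22 mimic group was 3 arrays of ES-2 cells transfected with hsa-mir-22 mimic at 65 nM, and the control mimic group was 3 arrays of ES-2 cells transfected with a negative control mimic modelled on Caenorhabditis elegans microRNAs. Total RNA was taken 48 hours after transfection in both groups and measured on an Illumina 1-colour bead array. Both groups therefore received a double-stranded RNA with transfection reagent, and mock-transfected cells were not analysed here. The labels give no dose for the control mimic. Replicate numbers are labelled as biological, but whether they came from separate cultures is not stated, so p-values reflect only how far these 6 arrays scattered, which may be technical. As in any bulk sample, fewer cells of a type and less RNA per cell cannot be told apart.

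Cells recognise double-stranded RNA through endosomal TLR3, through the cytosolic helicases RIG-I and MDA5, and through the kinase PKR and the oligoadenylate synthetases. The helicases signal through MAVS and TBK1 to the transcription factors IRF3 and IRF7, which switch on interferon beta. Secreted interferon then acts through its receptor, JAK kinases and a complex containing STAT2 and IRF9 that binds the interferon-stimulated response element in promoters and raises a large set of antiviral genes. Synthetic duplex RNAs, including short interfering RNAs and microRNA mimics, are known to be able to set off this response, and many tumour lines have lost parts of it.

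The mature microRNA that the mimic is named for is shown because its seed, bases 2 to 8, in capitals, sets which transcripts it can pair with. It lies at chr17:1713914-1713935 on the minus strand of GRCh38.p14.
hsa-miR-22-3p: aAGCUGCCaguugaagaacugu
The RefSeq promoters of 5 genes to which the results turn are given from 250 bases before to 50 bases after the transcription start on GRCh38.p14, 5′ to 3′ on the gene's own strand. Capitals mark matches, on either strand, to the response element searched for as GAAA followed, after 2 bases of any kind, by GAAA. ISG20 (chr15:88638766-88639065, plus strand) was the member with the largest change, and IFI35 (chr17:43006534-43006833, plus strand) was the other member that fell. IFIT5 (chr10:89414318-89414617, plus strand) is shown from the IFIT family, the promoter of IFIT2 not being in the table used. The IFIT1 and IFIT3 promoters, not printed, hold 2 matches each. IFI6 (chr1:27672143-27672442, minus strand) and TAP1 (chr6:32853655-32853954, minus strand) are interferon-induced genes described below, TAP1 having the largest fall in the wider list. The ISG20 window holds 1 match, the IFI35 window 0, the IFIT5 and IFI6 windows 3 each and the TAP1 window 2 that overlap.
ISG20: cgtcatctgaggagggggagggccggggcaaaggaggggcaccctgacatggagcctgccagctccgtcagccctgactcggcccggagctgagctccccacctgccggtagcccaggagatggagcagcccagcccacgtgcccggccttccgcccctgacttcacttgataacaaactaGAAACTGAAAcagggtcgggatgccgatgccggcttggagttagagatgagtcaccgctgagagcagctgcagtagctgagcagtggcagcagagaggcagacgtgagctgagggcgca
IFI35: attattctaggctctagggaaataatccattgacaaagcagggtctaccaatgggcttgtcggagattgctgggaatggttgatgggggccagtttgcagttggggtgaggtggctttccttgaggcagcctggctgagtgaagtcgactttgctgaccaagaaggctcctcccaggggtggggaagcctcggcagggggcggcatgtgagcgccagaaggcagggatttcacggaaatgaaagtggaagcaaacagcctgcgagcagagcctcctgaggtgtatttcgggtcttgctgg
IFIT5: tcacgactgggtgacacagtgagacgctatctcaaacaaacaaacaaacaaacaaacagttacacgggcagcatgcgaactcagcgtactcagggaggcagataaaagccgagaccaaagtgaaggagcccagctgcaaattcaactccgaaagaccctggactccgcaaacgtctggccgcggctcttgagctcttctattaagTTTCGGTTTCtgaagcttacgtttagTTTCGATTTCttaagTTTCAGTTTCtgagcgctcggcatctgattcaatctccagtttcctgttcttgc
IFI6: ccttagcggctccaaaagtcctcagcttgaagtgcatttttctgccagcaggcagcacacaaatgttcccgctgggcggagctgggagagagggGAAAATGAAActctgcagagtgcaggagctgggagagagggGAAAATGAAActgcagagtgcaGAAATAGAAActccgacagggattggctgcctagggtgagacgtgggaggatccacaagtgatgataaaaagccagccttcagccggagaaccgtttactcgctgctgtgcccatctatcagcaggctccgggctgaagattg
TAP1: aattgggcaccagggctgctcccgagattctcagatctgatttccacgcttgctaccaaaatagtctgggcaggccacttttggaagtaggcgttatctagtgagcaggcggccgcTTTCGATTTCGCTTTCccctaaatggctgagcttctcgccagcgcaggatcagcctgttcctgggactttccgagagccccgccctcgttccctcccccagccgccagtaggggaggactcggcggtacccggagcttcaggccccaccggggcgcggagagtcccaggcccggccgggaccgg
The response element was found in 17 of the 26 member promoters present in the RefSeq table (65.4%), against 503 of all 15842 protein-coding promoters of the same length (3.18%). The interferon gamma activated site, searched for as TTC and GAA with 3 bases of any kind between, was in 9 of the 26 (34.6%), against 6.97% of all. The NF-kB motif, searched for as GGGA and CC with 4 bases of any kind between, was in 10 of the 26 (38.5%), against 29.1% of all. A match is a description of the letters and does not show that a factor bound there.

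Arrays detected between 17465 and 19244 probes (35.8% to 39.4%) at a detection p under 0.01, with a median of 41 to 42 beads per probe, and the number of arrays limits the precision. Correlations of normalised log2 values were 0.995 to 0.998 among mimic arrays and 0.997 between control replicates 1 and 2. Control replicate 3 stood apart, with correlations of 0.980 and 0.981 to the other control arrays and a first principal component score of 50.09, against −21.33 to 0.11 on the 5 other arrays. It was the highest of the 6 arrays for 11 of the members kept and the lowest for 4, where 42.8% and 23.6% of all genes kept showed the same, so values without it are given below beside each member whose call or size it changed by over 1.5 times. All 4 mesenchymal markers (VIM, FN1, CDH2, COL1A1) passed the detection filter, as did 3 of 6 epithelial markers (KRT7, KRT8, KRT18), while EPCAM, CDH1 and CLDN4 did not. Of the clear cell carcinoma markers SPP1, VCAN and ARID1A passed, and NAPSA and PAX8 did not. Of the 7 leukocyte markers with a probe, CD14 alone passed, with a control mean of 5.24 on the log2 scale, and PTPRC, CD3E and LYZ did not. PECAM1 and CDH5, endothelial markers, passed and VWF did not. Of the markers kept, COL1A1 alone was called by limma, at 10.8 on mimic arrays and 9.52 on control arrays (log2 fold change 1.30, adjusted p = 0.0032). The part of other cell types in the results was not tested.

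Several members that interferon is known to induce were below detection in both groups. Probes entered the comparison when 3 or more arrays gave a detection p below 0.01, and 23 of the 33 members with a probe had such a probe. Detected on no array were IFNB1, which encodes interferon beta; TLR3, the endosomal sensor; OAS2 and OASL, of the oligoadenylate synthetase family; MX2, a GTPase that blocks viral nuclear entry; RSAD2, which encodes viperin; TRIM22, an antiviral ubiquitin ligase; and XAF1, an interferon-induced promoter of apoptosis. Their 14 probes lay between 4.13 and 4.74 on the log2 scale, where the lowest detected probe of an array lay between 4.66 and 4.81. MX1, the GTPase that traps viral nucleocapsids, was detected on 1 mimic array and 1 control array. BST2, the membrane protein tetherin, was detected on 1 mimic array and 0 control arrays. An undetected probe gives only an upper bound on the level, and a missing signal can also come from a probe that binds poorly.

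Among the 23 members kept, 1 rose, 2 fell and 20 did not pass an adjusted p of 0.05 (limma with Benjamini-Hochberg adjustment over 18732 probes). The share called was 13.0%, read against 7.61% of all 11133 genes kept, where 3.47% were higher and 4.14% lower, and 6.46% of the probes. IFIT2 rose, and ISG20 and IFI35 fell. The median log2 fold change over the 23 was −0.05, with single members from −0.79 to 0.48, and that over all genes was −0.02. Mimic and control arrays did not overlap for 9 of the 23 (39.1%), against 34.2% of all genes: 4 lay above (14.8% of all genes) and 5 below (19.5% of all genes). For 15 of the 23 the 95% interval of the fold change lay within 1.5-fold in either direction (65.2%), against 71.0% of all genes. Without control replicate 3, 5 members were called (IFIT2, RIGI and IFIT1 higher, ISG20 and IFI35 lower), beside 1793 of all 11052 genes then kept. Without mimic replicate 1 or 2, 0 members were called by limma. At an unadjusted p under 0.05 were 4 of 22 members without mimic replicate 1 and 4 of 23 without mimic replicate 2. Over all genes, 88 of 10925 were called and 1916 were at an unadjusted p under 0.05 without mimic replicate 1. Without mimic replicate 2, 90 of 10960 genes were called and 1939 were at an unadjusted p under 0.05. Without mimic replicate 3, control replicate 1 or control replicate 2, ISG20 was the only member called, beside 129, 421 and 290 of all genes. With the replicate number as a block, 5 were called (IFIT2 and RIGI higher, ISG20, IFI35 and IFI6 lower), beside 1101 of all 11133 genes.

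**Figure D1:**
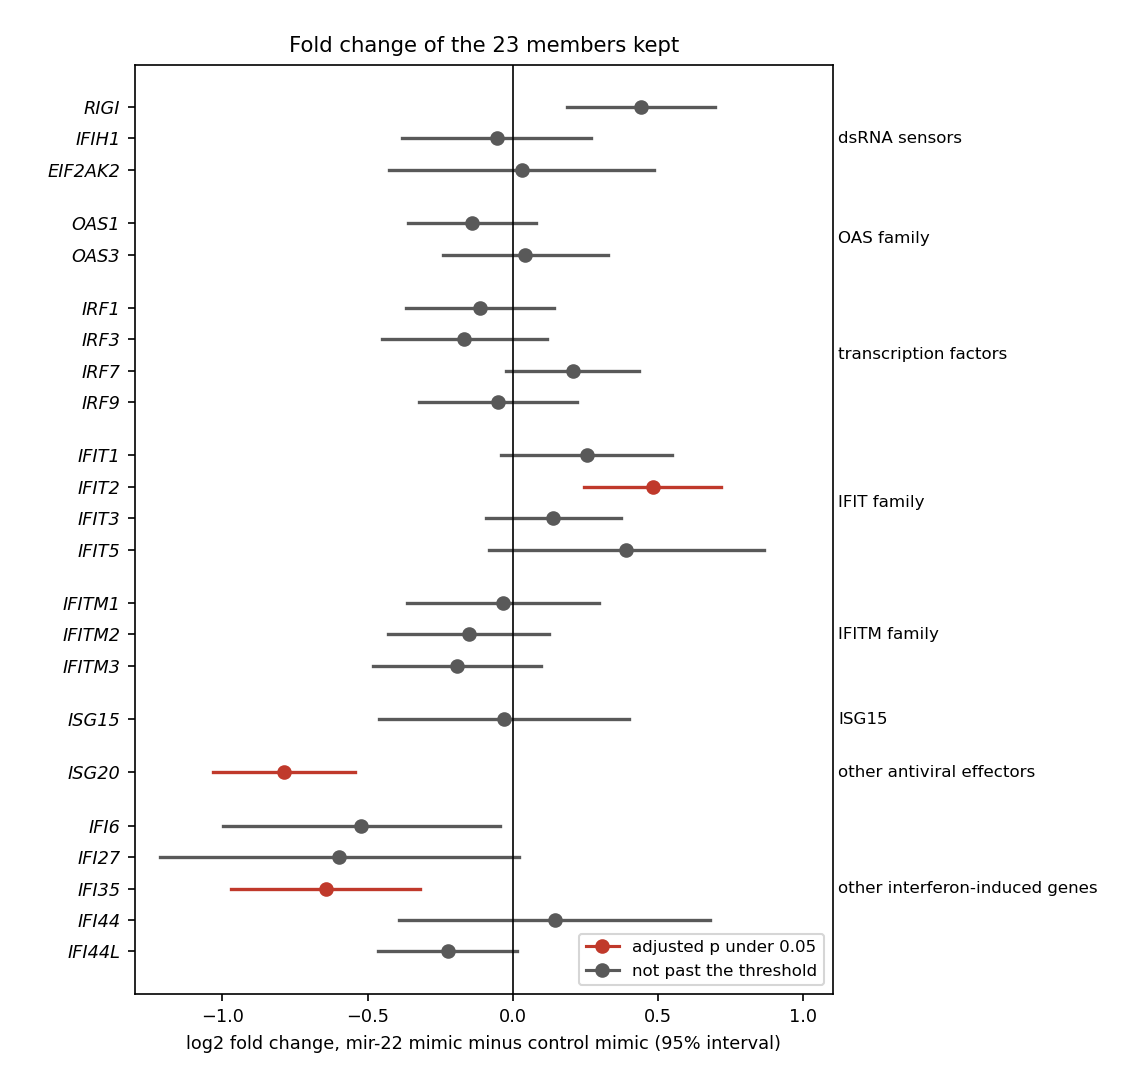
Log2 fold change, mir-22 mimic minus control mimic, of each of the 23 members kept, grouped by role, with its 95% interval; filled colour marks an adjusted p under 0.05 and grey a member not past the threshold. IFIT2 at 0.48 is the coloured point above 0, and ISG20 at −0.79 and IFI35 at −0.64 are the coloured points below it, while the 4 IFIT genes all lie to the right of 0.

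Among the sensors, RIGI, which encodes the cytosolic helicase RIG-I that binds RNA ends carrying triphosphate, was 6.70, 6.73 and 6.91 on mimic replicates 1 to 3 (log2 normalised intensity), against 6.29, 6.25 and 6.48 on control replicates 1 to 3. All 3 mimic arrays lay above all 3 control arrays. The log2 fold change was 0.44 ± 0.11 (moderated SE, 95% interval 0.19 to 0.69), or 1.36-fold, with an adjusted p of 0.054 (limma), just outside the threshold. The adjusted p of RIGI was 0.037 with the replicate block and 0.00892 without control replicate 3, where the log2 fold change was 0.52. IFIH1, which encodes MDA5, the helicase for long duplexes, was close to background, at 4.90, 4.85 and 5.06 on mimic arrays and 5.05, 5.21 and 4.71 on control arrays. It was detected on 3 mimic arrays and 2 control arrays, the groups overlapped and the log2 fold change was −0.06 (95% interval −0.38 to 0.27), or −0.20 without control replicate 3. EIF2AK2, which encodes PKR, the kinase that halts translation on binding double-stranded RNA, was far brighter than background. It averaged 9.88 ± 0.29 on mimic arrays and 9.85 ± 0.34 on control arrays (SD, n = 3 each), a log2 fold change of 0.03 (95% interval −0.43 to 0.49) that was −0.16 without control replicate 3.

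The oligoadenylate synthetases make the second messenger that activates RNase L. OAS1 was 5.07, 4.93 and 5.03 on mimic arrays, against 5.16, 5.21 and 5.07 on control arrays. The groups did not overlap, by a narrow margin, and the log2 fold change of −0.14 ± 0.10 had an adjusted p of 0.426 (limma). OAS3 was 4.70, 4.51 and 4.94 on mimic arrays and 4.70, 4.63 and 4.69 on control arrays, detected on 2 mimic arrays and 1 control array. Its log2 fold change of 0.04 (95% interval −0.24 to 0.33) is between values at the edge of detection.

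None of the 4 transcription factors measured passed the threshold by limma, and none was at an unadjusted p under 0.05. IRF7, the interferon-induced amplifier of interferon transcription, was 6.30, 6.45 and 6.43 on mimic arrays, against 6.11, 6.17 and 6.29 on control arrays. The groups nearly met, and the log2 fold change was 0.21 ± 0.10 (adjusted p = 0.263, limma). Another IRF7 probe that passed the filter had the opposite sign, at −0.19, and a further one, detected on 1 mimic array only, averaged 4.74 on mimic arrays and 4.44 on control arrays. IRF3, the constitutive factor that the RNA sensors activate, was 7.29, 7.27 and 7.49 on mimic arrays and 7.44, 7.39 and 7.72 on control arrays, a log2 fold change of −0.17 (95% interval −0.45 to 0.12), or −0.06 without control replicate 3. IRF1, an early interferon-induced activator, averaged 8.19 ± 0.01 on mimic arrays and 8.31 ± 0.17 on control arrays. IRF9, the DNA-binding partner of STAT2, averaged 7.70 ± 0.18 on mimic arrays and 7.75 ± 0.08 on control arrays (SD, n = 3 each). The log2 fold changes of IRF1 and IRF9, −0.11 and −0.05, turned positive with median scaling in place of quantile normalisation, at 0.01 and 0.07, and were −0.04 and −0.09 without control replicate 3.

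The IFIT genes, which encode tetratricopeptide proteins that bind viral RNA and block its translation, were the role group whose measured members all had positive fold changes, with 1 of 4 called (7.61% of all genes were called, 3.47% as higher) and a median log2 fold change of 0.32, against −0.02 over all genes. IFIT2 was 6.61, 6.61 and 6.49 on mimic arrays, against 5.98, 6.07 and 6.21 on control arrays. Every mimic array was above every control array. Its log2 fold change was 0.48 ± 0.10 (95% interval 0.25 to 0.72), or 1.40-fold, with an adjusted p of 0.0334 (limma). The call was lost when any mimic array or control replicate 1 or 2 was left out, with adjusted p between 0.0925 and 0.156, and without control replicate 3 it was 0.00531.

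IFIT1, the member that binds RNA caps lacking methylation, was 6.48, 6.67 and 6.61 on mimic arrays, against 6.32, 6.13 and 6.55 on control arrays. Only control replicate 3 reached into the mimic range, and the log2 fold change of 0.26 (95% interval −0.04 to 0.55) had an adjusted p of 0.28 with all arrays and 0.0419 without that array (limma). IFIT5 was 6.06, 5.88 and 5.93 on mimic arrays and 5.78, 5.87 and 5.04 on control arrays. The groups nearly met at mimic replicate 2 and control replicate 2. Its log2 fold change of 0.39 ± 0.21 (adjusted p = 0.302, limma) rested on control replicate 3, the lowest array, and was 0.13 without that array. IFIT3, a partner that stabilises IFIT1 on RNA, was 7.12, 7.01 and 6.94 on mimic arrays and 6.91, 6.78 and 6.96 on control arrays, a log2 fold change of 0.14 (95% interval −0.09 to 0.37). Against the mean of control replicates 1 and 2, the family median was 0.27, 0.31 and 0.25 on the mimic arrays and 0.15 on control replicate 3. The 4 signs stayed positive in all 14 alternative analyses. These reuse the same 6 arrays, so they are not independent of each other, and the share of all genes keeping their sign was not computed.

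**Figure D2:**
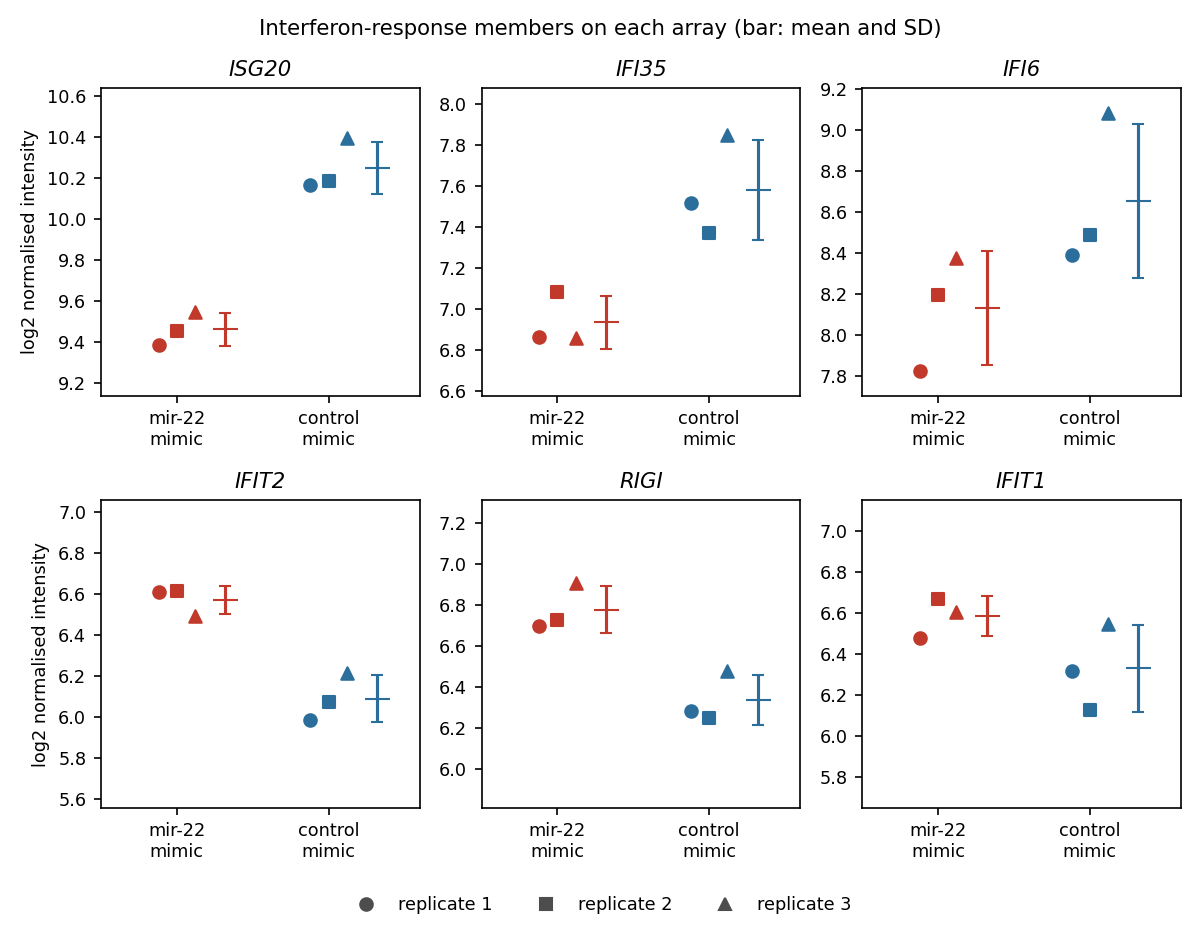
Log2 normalised intensity of single members on each array, with mir-22 mimic arrays on the left of each panel and control mimic arrays on the right, the symbol giving the replicate number and the bar the mean and SD (n = 3 each). ISG20 and IFI35 lie lower on all mimic arrays than on all control arrays, IFIT2 and RIGI lie higher, and for IFIT1 control replicate 3, at 6.55, reaches into the mimic range.

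The 3 IFITM genes encode small membrane proteins that block fusion of enveloped viruses, and none of them passed the threshold by limma or had an unadjusted p under 0.05. IFITM2 was 10.86, 10.97 and 10.96 on mimic arrays and 10.97, 10.96 and 11.30 on control arrays, among the brightest members. IFITM3 was 9.63 on each of the mimic arrays, against 9.58, 9.86 and 10.02 on control arrays. Their log2 fold changes were −0.15 (95% interval −0.43 to 0.13) and −0.19 (95% interval −0.48 to 0.10), and the groups overlapped for both. Without control replicate 3 they were −0.04 and −0.09. These are near-identical copies, so probes may read both. IFITM1 averaged 6.68 ± 0.09 on mimic arrays and 6.71 ± 0.27 on control arrays (SD, n = 3 each), a log2 fold change of −0.03 that was 0.09 with median scaling and 0.12 without control replicate 3. ISG15, the ubiquitin-like modifier and among the most inducible interferon genes, was dim, at 5.64, 5.49 and 5.59 on mimic arrays and 5.71, 5.16 and 5.94 on control arrays. The control arrays spanned the whole mimic range, and the log2 fold change was −0.03 (95% interval −0.46 to 0.40), or 0.14 without control replicate 3 and 0.06 with median scaling.

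ISG20, an exonuclease that degrades viral RNA, had the largest change of any member kept and was the only one of the 6 MX and other antiviral effector genes kept. It was 9.38, 9.45 and 9.55 on mimic arrays, against 10.16, 10.19 and 10.39 on control arrays. The groups lay well apart. It fell to 0.579 times the control level, a log2 fold change of −0.79 ± 0.11 (95% interval −1.03 to −0.54, adjusted p = 0.00763, limma). Without control replicate 3 the log2 fold change was −0.71 with an adjusted p of 0.00174, and the call was lost without mimic replicate 1 or 2, at adjusted p of 0.0615 and 0.0622.

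Of the 5 other interferon-induced genes kept, IFI35 fell and 4 did not pass the threshold (20.0% called, against 7.61% of all genes). The group median was −0.52 on the log2 scale, against −0.02 over all genes. Measured from the mean of control replicates 1 and 2, it was −0.19, −0.24 and −0.26 on the mimic arrays and 0.405 on control replicate 3. IFI35, a leucine zipper protein that partners NMI, was 6.86, 7.08 and 6.86 on mimic arrays, against 7.52, 7.37 and 7.85 on control arrays. No mimic array reached a control array. Its level was 0.640 times that of controls, a log2 fold change of −0.64 ± 0.14 (95% interval −0.97 to −0.32, adjusted p = 0.0369, limma). Leaving out any mimic array or control replicate 1 or 2 ended the call (limma, adjusted p between 0.0516 and 0.156), as did median scaling (−0.52, adjusted p = 0.0926) and dropping the detection filter (adjusted p = 0.0819). Without control replicate 3 the adjusted p was 0.0135.

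IFI6, a small membrane protein that counters apoptosis, was 7.83, 8.20 and 8.38 on mimic arrays, against 8.39, 8.49 and 9.08 on control arrays. The groups did not overlap, although mimic replicate 3 and control replicate 1 nearly met. Its log2 fold change of −0.52 ± 0.21 (adjusted p = 0.178, limma) passed the threshold with the replicate block, with an SE of 0.11 and an adjusted p of 0.0403. Without control replicate 3 it was smaller, at −0.31 (adjusted p = 0.203, limma). The other IFI6 probe had a log2 fold change of −0.57. IFI27, a related small membrane protein, was 6.16, 5.94 and 6.04 on mimic arrays and 6.48, 6.12 and 7.33 on control arrays. Control replicate 3 was far above the rest, and the log2 fold change was −0.60 with it (adjusted p = 0.231, limma) and −0.26 without it (adjusted p = 0.205).

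IFI44L, a paralogue of IFI44, was 4.88, 4.99 and 4.77 on mimic arrays and 5.01, 5.13 and 5.17 on control arrays. These values are near background, the groups just failed to overlap, and the log2 fold change was −0.22 (95% interval −0.46 to 0.02). At the other IFI44L probe that passed the filter the groups overlapped, with a log2 fold change of −0.05. IFI44 was bright and averaged 10.12 ± 0.08 on mimic arrays and 9.98 ± 0.53 on control arrays (SD, n = 3 each). Its log2 fold change was 0.14 with all arrays and −0.13 without control replicate 3. Over the 23 members, the SD over control arrays exceeded that over mimic arrays for 19. The share over all genes was not computed. Control replicate 3 was the highest array for 42.8% of all genes kept and the lowest for 23.6%.

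**Figure D3:**
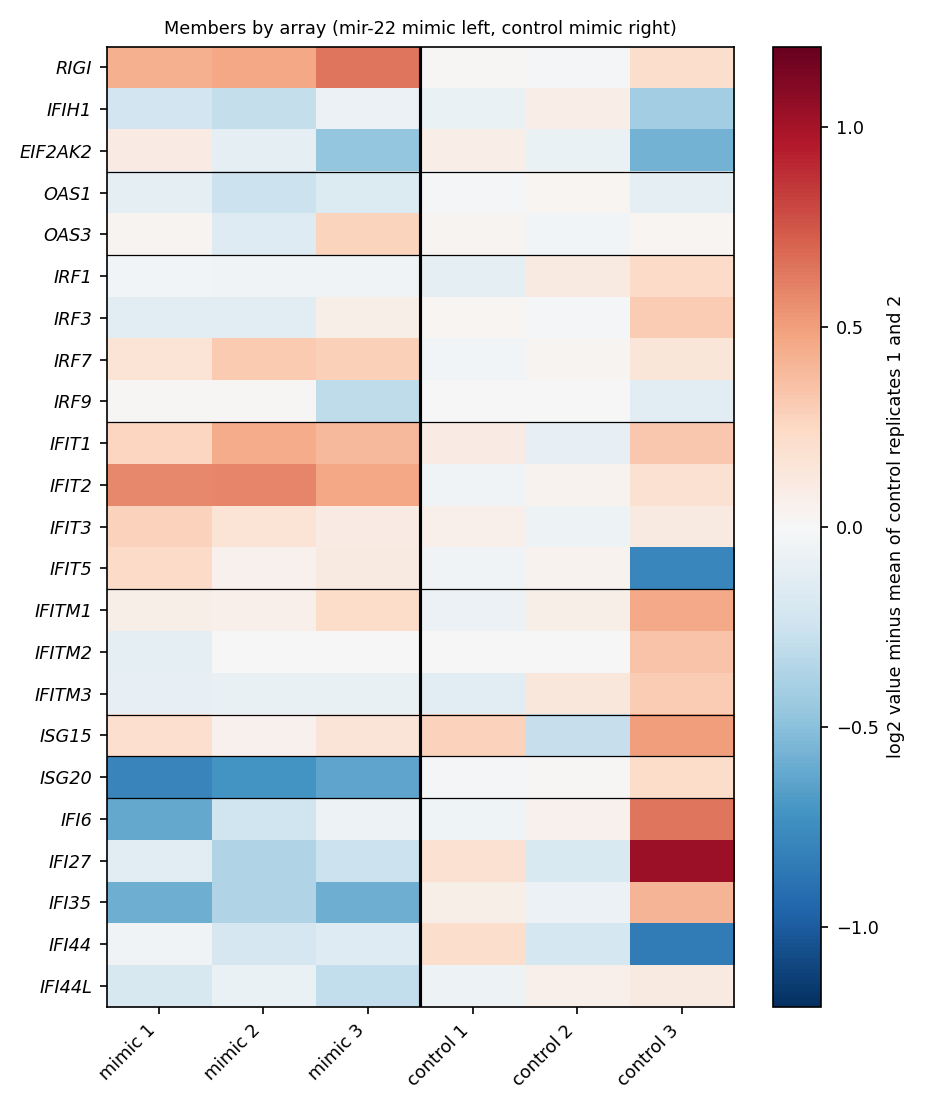
Log2 value of each member kept on each array minus its mean over control replicates 1 and 2, with mir-22 mimic arrays on the left and control mimic arrays on the right. The median over the 23 members is −0.03, −0.08 and −0.04 on the mimic arrays and 0.21 on control replicate 3, whose column stands out in both directions; the same shift over all genes on that array is 0.12.

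**Figure D4:**
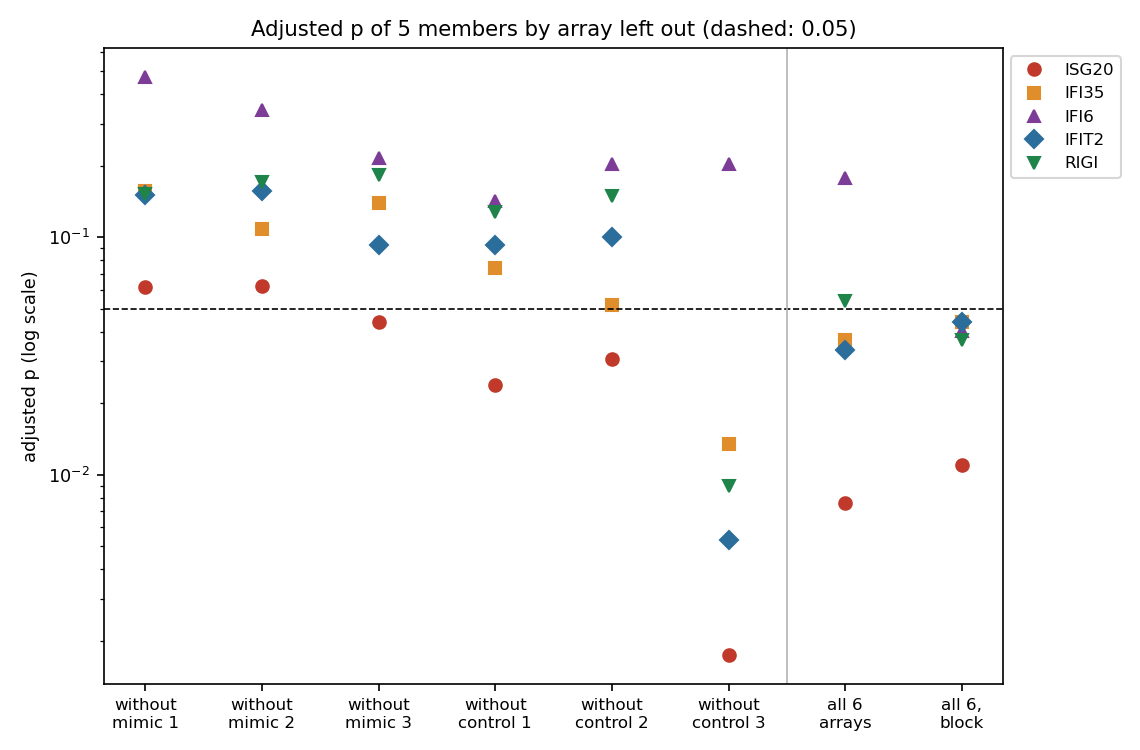
Adjusted p from limma (log axis) of 5 members with each array left out in turn and, to the right of the grey line, with all 6 arrays and with the replicate block, the dashed line marking 0.05. ISG20, IFI35, IFIT2 and RIGI have their lowest adjusted p when control replicate 3 is left out, IFI6 lies under the line with the block only, and ISG20 lies over it without mimic replicate 1 or 2 only.

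Members with and without a match to the response element both had fold changes of either sign, and a link between match and direction was not tested. Of the 19 members kept whose promoter was in the table, 14 had a match, of which 6 had positive and 8 negative fold changes, with a median of −0.03 on the log2 scale. The 5 without a match (RIGI, OAS1, IRF1, IRF9 and IFI35) had 1 positive and 4 negative fold changes and a median of −0.11. ISG20, with 1 match, and IFIT5, with 3, lay at opposite ends of the fold changes among the genes with a match, at −0.79 and 0.39.

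A wider list of 114 other genes of the pathway, drawn up with earlier results of these data known, had 105 with a probe and 80 kept. Of the 80, 4 rose and 10 fell (17.5% called, against 7.61% of all genes), and the median log2 fold change was −0.09. With median scaling, which moved the median of all genes by 0.103 on the log2 scale, 5 rose and 5 fell. Without control replicate 3 the count was 20, and without mimic replicates 1, 2 and 3 it was 2, 1 and 5, and without control replicates 1 and 2 it was 9 and 5. Over all genes the counts, in the same order, were 1793, then 88, 90 and 129, then 421 and 290, against 847 with all arrays. Among the other interferon-induced genes 1 of 31 rose and 7 fell (25.8% called, median −0.21), and in antigen presentation 3 of 15 fell (20.0%, median −0.13).

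Of 9 other interferon ligands, IFNE and IFNW1 were kept, with log2 fold changes of 0.00 and −0.18, and the interferon alpha, gamma, kappa and lambda genes listed were not. None of the 10 receptor and JAK-STAT genes kept passed the threshold by limma, and their median log2 fold change was 0.11. At an unadjusted p under 0.05 was 1 of the 10, beside 2850 of all 11133 genes. IFNGR1, a chain of the interferon gamma receptor, was closest, at 9.60, 9.59 and 9.55 on mimic arrays and 9.00, 9.01 and 9.33 on control arrays (log2 fold change 0.47, limma adjusted p = 0.053). IFNAR1, a chain of the type I receptor, averaged 7.21 on mimic arrays and 6.96 on control arrays (log2 fold change 0.25, 95% interval −0.07 to 0.56). None of the 9 other proteins that bind or degrade double-stranded RNA passed by limma, with 1 at an unadjusted p under 0.05.

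Among 13 adaptors and kinases below the sensors, 3 rose by limma and 10 did not pass (23.1% called, against 7.61% of all genes, 3.47% as higher). Of the 13, 6 had positive and 7 negative log2 fold changes, from −0.44 to 0.52, with a median of −0.03. AZI2, an adaptor of the kinase TBK1, was 7.19, 7.22 and 7.22 on mimic arrays, against 6.83, 6.61 and 6.62 on control arrays, a log2 fold change of 0.52 ± 0.10 (limma adjusted p = 0.0241). STING1, the adaptor for cytosolic DNA sensing, was 7.80, 7.85 and 7.74 on mimic arrays, against 7.29, 7.25 and 7.44 on control arrays, a log2 fold change of 0.47 ± 0.10 (limma adjusted p = 0.0316). DDX3X, an RNA helicase, named after its value was seen, had a log2 fold change of 0.43 (limma adjusted p = 0.0487), and its adjusted p was 0.0603 with the replicate block. MAVS and TBK1 themselves, the adaptor and the kinase through which RIG-I signals, had log2 fold changes of 0.05 and −0.03. A second MAVS probe had the opposite sign, at −0.28, with all mimic arrays below all control arrays (limma adjusted p = 0.14). All 3 calls in this group were lost without mimic replicate 1, 2 or 3, and the adjusted p of AZI2 reached 0.127 and that of STING1 0.153. Median scaling also ended the call of AZI2 (0.65, limma adjusted p = 0.0535).

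GBP2, an interferon-induced GTPase, was the one gene of the interferon-induced list that rose. It was 6.02, 6.03 and 6.08 on mimic arrays, against 5.35, 5.15 and 5.15 on control arrays, or 1.77-fold (log2 fold change 0.82 ± 0.10, adjusted p = 0.00531, limma), and it was called in all 14 alternative analyses, with an adjusted p of 0.0499 at the highest when 1 array was left out. PLSCR1, a phospholipid scramblase, was 6.93, 6.88 and 6.81 on mimic arrays, against 7.62, 7.56 and 7.78 on control arrays, 0.582 times the control level (limma adjusted p = 0.007). Mimic and control arrays lay apart for both genes, in opposite directions. HERC6, of the HERC ubiquitin ligase family, was 0.611 times, UBE2L6, the conjugating enzyme for ISG15, 0.663 times and PARP14, an ADP-ribosyltransferase, 0.676 times the control level, with limma adjusted p of 0.0144, 0.0186 and 0.0263. The highest adjusted p with 1 array left out was 0.0588 for PLSCR1 (without mimic replicate 2), 0.0908 for HERC6, 0.108 for UBE2L6 and 0.13 for PARP14. Median scaling ended the calls of UBE2L6 and PARP14 as well, at limma adjusted p of 0.0587 and 0.0805.

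The 3 antigen-presentation genes that fell act in making peptides for class I molecules or carrying them into the endoplasmic reticulum. TAP1, a subunit of the peptide transporter, was 8.41, 8.49 and 8.71 on mimic arrays, against 9.36, 9.45 and 9.70 on control arrays. It was 0.512 times the control level (log2 fold change −0.96 ± 0.13, adjusted p = 0.00763, limma). PSMB8, an immunoproteasome subunit, was 8.64, 8.64 and 8.78 on mimic arrays, against 9.36, 9.34 and 9.53 on control arrays, 0.605 times (limma adjusted p = 0.00864). PSMB9, its partner subunit, was 5.40, 5.42 and 4.98 on mimic arrays, against 6.03, 6.14 and 6.30 on control arrays, 0.540 times (limma adjusted p = 0.0133). All 3 lay lower on every mimic array than on every control array, and with a mimic array left out their highest adjusted p were 0.061, 0.0685 and 0.0646. B2M, the light chain of class I molecules, averaged 11.38 on mimic arrays and 11.63 on control arrays (log2 fold change −0.24, 95% interval −0.79 to 0.31).

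**Figure D5:**
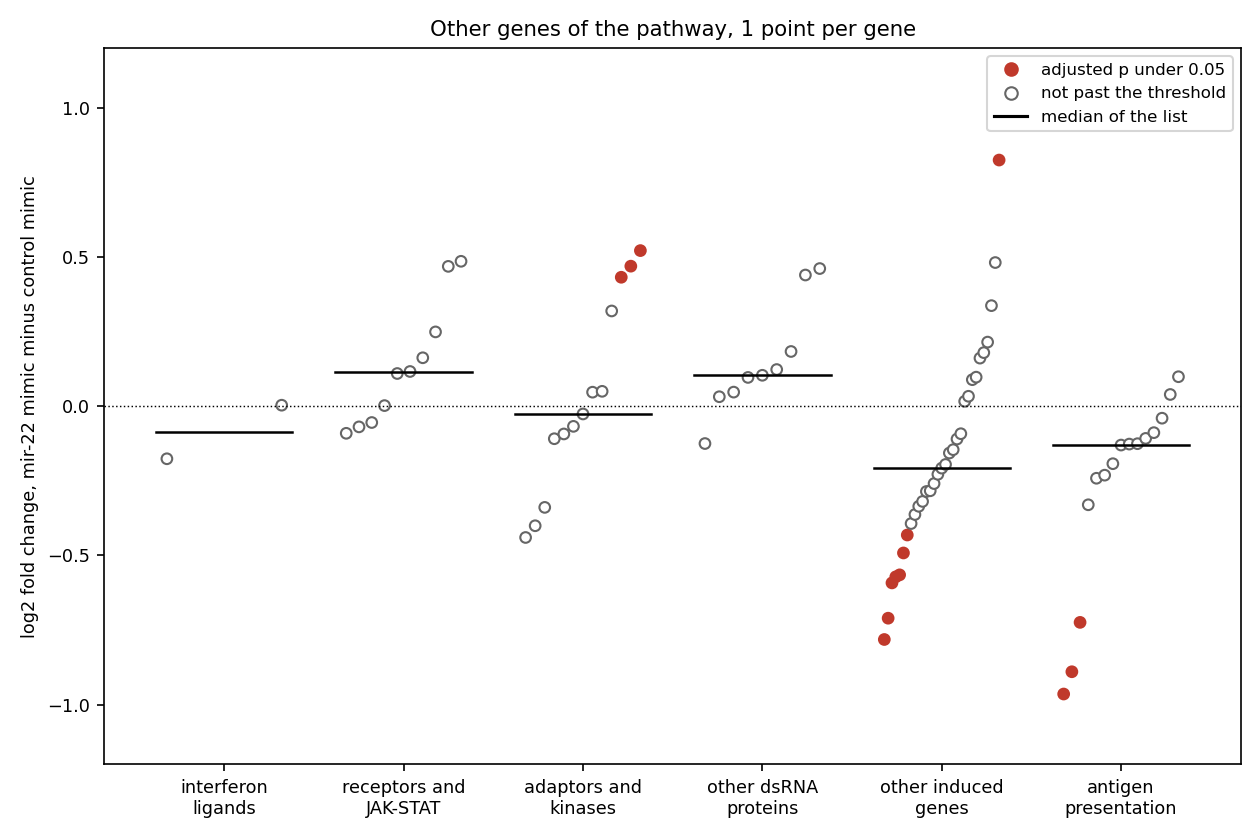
Log2 fold change, mir-22 mimic minus control mimic, of the 80 genes of the wider list that were kept, 1 point per gene by list, with the list median as a bar; filled colour marks an adjusted p under 0.05. Of the coloured points, 4 lie above 0 and 10 below, and TAP1 at −0.96 is the lowest and GBP2 at 0.82 the highest.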

How the data were processed

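Gene expression was measured on 6 Illumina 1-colour bead arrays, 3 per group. The deposited intensity of a probe is the average signal over its beads, with the bead SD, bead number and a detection score, per the file headers. The deposited detection score runs toward 1 for bright probes, and 1 minus the score was used as the detection p. BeadStudio is named per the submitters' processing notes, with no version given to work from. A value table of scaled intensities by the authors was also deposited, with the same median, 48.6, on every array. Its normalisation method is not named, and whether it is centred further is unknown. Array rows carry no probe names, so they were matched to the value table by the rank of each value on all 6 arrays, and all 48803 matched 1 to 1.

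In R 4.3.3 with limma 3.58.1, neqc corrected background using detection p, added an offset of 16, quantile-normalised and took log2 intensities. Probes with a detection p under 0.01 on 3 or more arrays entered lmFit and eBayes, mir-22 mimic minus control mimic, with Benjamini-Hochberg adjustment over 18732 probes and a threshold of 0.05. All log2 values given are relative to this processing of the deposited signals. The brightest such probe stood for a gene. Of all probes, 28098 had 1 gene symbol, 13 several and 20692 none here, and updating by Entrez identifier changed 0 symbols. The procedure was also run on simulated data with independent noise and no array that stood apart. It recovered 40 of 100 changes of 1.5-fold and 95 of 100 changes of 2-fold, and called 14 unchanged probes. Many changes of 1.5-fold or less would therefore be missed.

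The replicate numbers come from the labels. Deviations from the group means correlated at 0.334, 0.135 and 0.434 between mimic and control arrays numbered 1, 2 and 3, so a blocked fit was run. Mimic 1 with control 2 gave 0.315 and mimic 2 with control 1 gave 0.181, so these values do not tell numbers 1 and 2 apart, and calls gained with the block depend on taking the number as a pairing. Alternatives were an offset of 50, median scaling, the authors' value table, no detection filter, detection on all arrays, eBayes with trend and robust settings, the replicate block, the mean over probes and leaving out each array. Promoter and mature microRNA sequences are from RefSeq (GRCh38.p14), which held 26 of 35 member promoters.

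Every member is named: per-array values are given for those past the threshold, the 12 others with the lowest adjusted p, those measured on some arrays of a group only, and ISG15 for its role group; of the wider list, at most 10 past the threshold, by lowest adjusted p, with other genes named by role and after their values were seen. Members and lists were chosen with earlier results of these data known.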

Additional observations from a re-analysis of the deposited data

How the results depend on the processing

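With the replicate number as a block, 5 members were called, RIGI and IFI6 being added, and no other member's call changed; of the wider genes named, DDX3X was lost. Leaving out 1 array gave 0 to 5 members called by limma, the 0 without mimic replicates 1 and 2. In those fits 4 members each were at an unadjusted p under 0.05, beside 1916 of 10925 and 1939 of 10960 genes. Leaving out 1 array gave 1 to 20 genes of the wider list and 122 to 2659 probes against 1210. The highest counts were without control replicate 3 each time. Over all probes the block called 1577. With median scaling, 596 probes were higher and 272 lower, against 569 and 641 with quantile normalisation. The member median was then 0.0465, against −0.0501, and the median of all genes 0.0861, against −0.0169, so the members lay 0.0396 and 0.0332 below all genes. Median scaling also turned the sign of IFITM1 (0.0886), IRF1 (0.0129), IRF9 (0.0728) and ISG15 (0.0646), none of them called. Among uncalled members whose sign turned when an array was left out, the log2 fold change ranged from −0.159 to 0.185 for EIF2AK2, −0.133 to 0.389 for IFI44, −0.201 to 0.0528 for IFIH1, −0.143 to 0.119 for IFITM1, −0.104 to 0.056 for IRF9 and −0.255 to 0.142 for ISG15. RIGI was called in 7 of the 14 alternatives, including the offset of 50 (adjusted p 0.0492) and the authors' value table (0.0484). ISG20 was called in 12 of 14, and its adjusted p ran from 0.00174 to 0.0622. The cause of these changes was not tested. Leaving out an array leaves 5 arrays and fewer residual degrees of freedom. Signal over background limits IFIH1, OAS1, OAS3, IFI44L and ISG15, whose group means all lay within 1 log2 unit of the dimmest detected probes. The 8 members detected on no array have only an upper bound, and MX1 and BST2 were detected on 1 or 2 arrays only.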

Other observations

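Several genes with more than 1 probe past the detection filter gave different readings, all on the log2 scale and from limma. SP100, a nuclear body protein that interferon induces, had a fold change of −0.11 at its brightest probe, 0.30 at another and −0.84 at the other one (adjusted p = 0.0132). PSMB8 had 3 further probes at −0.39, −0.67 and −0.36, all of the sign of the brightest, and of these the one at −0.67 alone was called. UBE2L6 had −0.59 at both of its probes. IFIT1 and IFIT3 had second such probes at 0.08 and 0.03, smaller than the 0.26 and 0.14 of the brightest. These genes were named after their values were seen.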
